A study of Homo sapiens with 18 samples.

Results

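The genes of P-TEFb, of the 7SK particle that restrains it and of linked BET and elongation factors were followed in cells treated with triptolide (TPL). They were chosen by name, for their part in the release of RNA polymerase II (RNAPII) from promoters. The 9 genes were HEXIM1, HEXIM2, CDK9, CCNT1, CCNT2, LARP7, MEPCE, BRD2 and AFF4, out of 23604 entries listed in at least 1 RNA-Seq library. All cells were MCF10A-Er-Src, a human breast epithelial line that carries a v-Src kinase fused to a ligand-binding domain of the oestrogen receptor, so that tamoxifen switches the kinase on. Cells without tamoxifen are called NT and cells transformed with tamoxifen are called TAM. Both kinds received either DMSO, the solvent, or 0.125 µM TPL for 4 h, which gives 4 groups named NT, NT + TPL, TAM and TAM + TPL. TPL is a small molecule that binds XPB, a subunit of the general transcription factor TFIIH. Each group had 2 RNA-Seq libraries from separate biological replicates and 1 list of RNAPII peaks from ChIP-Seq. The cells come from a single line, so every value describes that line.

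P-TEFb is a kinase made of CDK9 and a cyclin T, encoded by CCNT1 or CCNT2. It phosphorylates RNAPII and the factors that pause it, and thereby lets RNAPII move from the promoter into the gene. Much of the P-TEFb in a cell is kept inactive in the 7SK particle, in which the 7SK RNA is capped by MEPCE and stabilised by LARP7, and HEXIM1 or HEXIM2 binds and inhibits CDK9. Drugs that block transcription are known to release P-TEFb from this particle, and HEXIM1 is a known target gene of the freed kinase. BET proteins such as BRD2 bind acetylated histones, and AFF4 is the scaffold of the super elongation complex, which carries active P-TEFb.

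The stretch just before the main transcription start site (TSS) is shown for the members that had a listed RNAPII peak over that TSS in all 4 groups and whose stretch lay outside annotated untranslated regions. Each line gives the 100 bases before the TSS of the Ensembl canonical transcript, 5′ to 3′ on the gene's strand, on build hg19. Capitals mark the TATA box letters TATAAA on the gene's strand, and on either strand the GC box letters GGGCGG, the CCAAT box and the letters TGCGCA that NRF1 sites hold. In the AFF4 line the GC box letters are read on the other strand, as CCGCCC. No marked motif overlapped another.
HEXIM1, chr17:43225742-43225841, plus strand: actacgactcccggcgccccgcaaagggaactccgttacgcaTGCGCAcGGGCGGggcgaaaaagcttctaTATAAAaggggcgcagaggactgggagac
CDK9, chr9:130548213-130548312, plus strand: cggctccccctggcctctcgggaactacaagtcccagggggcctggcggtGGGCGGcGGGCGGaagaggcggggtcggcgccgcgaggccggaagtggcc
MEPCE, chr7:100027354-100027453, plus strand: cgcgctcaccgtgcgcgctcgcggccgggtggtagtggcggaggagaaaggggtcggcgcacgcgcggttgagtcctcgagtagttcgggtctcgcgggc
AFF4, chr5:132299327-132299426, minus strand: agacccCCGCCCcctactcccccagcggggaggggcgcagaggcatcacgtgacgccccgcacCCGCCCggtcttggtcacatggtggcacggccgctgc
HEXIM1 held TATAAA, starting 29 bases before its TSS, and these letters were absent from the same window of the other 8 members. Among 19856 protein-coding genes, 4.73% had TATAAA in this window. HEXIM1 also held GGGCGG, present in 45.6% of the windows, and TGCGCA, present in 5.26%. TGCGCA was also found in the window of BRD2. CDK9, AFF4 and CCNT2 held GGGCGG at 2 places each, and MEPCE held none of the 4 motifs. CCAAT, present in 20.7% of the windows, was found in 1 member, LARP7. A match is a description of the letters and does not show that a factor bound there.

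The 8 libraries held between 7461309 and 8349448 expected counts, and their 10 most abundant genes took between 8.06 and 9.78% of them. Of 9 breast epithelial markers, all were listed, with a summed level between 4244 and 19180 FPKM (fragments per kilobase of transcript, scaled to the mapped fragments of the library) per library. With TPL, 4 of these 9 fell in each state and 1 rose in NT cells. Over all genes tested, 19.8% fell and 17.2% rose in NT cells, and 18.6% fell and 14.3% rose in TAM cells. The largest fall among the 9 markers was that of TP63, a basal epithelial transcription factor. Its log2 fold changes were -5.31 in NT and -5.04 in TAM cells. Marker lists of other cells summed to between 7.19 and 19.93 FPKM for leukocytes, mostly from CD14, and to between 0.46 and 1.73 for endothelium and between 0.56 and 6.23 for fibroblasts. CD14 rose with TPL in NT cells by a log2 fold change of 0.77 ± 0.208 (edgeR, adjusted p = 0.0272), with -0.13 ± 0.213 in TAM cells (adjusted p = 0.668), and its part in the results was not tested. CDH5 was not listed in any library. CD3E was at most 0.17 FPKM. In a bulk library a fall can come from fewer cells that express a gene or from less RNA per cell, and these cannot be told apart. FPKM and the fitted changes are relative to the other RNAs of a library and do not measure total RNA.

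Before TPL the members differed widely in level. In NT cells BRD2 was the most abundant at 109 ± 1.09 FPKM (SD, n = 2), followed by MEPCE at 38.9 ± 4.16 and LARP7 at 25.3 ± 6.43. HEXIM1 was next at 20.73 ± 1.004, then AFF4 at 16.9 ± 6.24 and CDK9 at 16.5 ± 2.30. The libraries of these neighbours, from LARP7 down to CDK9, overlapped from each gene to the next, so their order was not resolved. CCNT1 at 5.74 ± 1.28 FPKM lay below CDK9 without overlap, and CCNT2 at 2.50 ± 1.32 and HEXIM2 at 1.42 ± 0.431 were the lowest, with overlapping libraries. In TAM cells BRD2, MEPCE and LARP7 again led, and CCNT1, CCNT2 and HEXIM2 were again the lowest 3. With TPL, HEXIM1 was the second most abundant member in both states, above MEPCE without overlap.

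**Figure D1:**
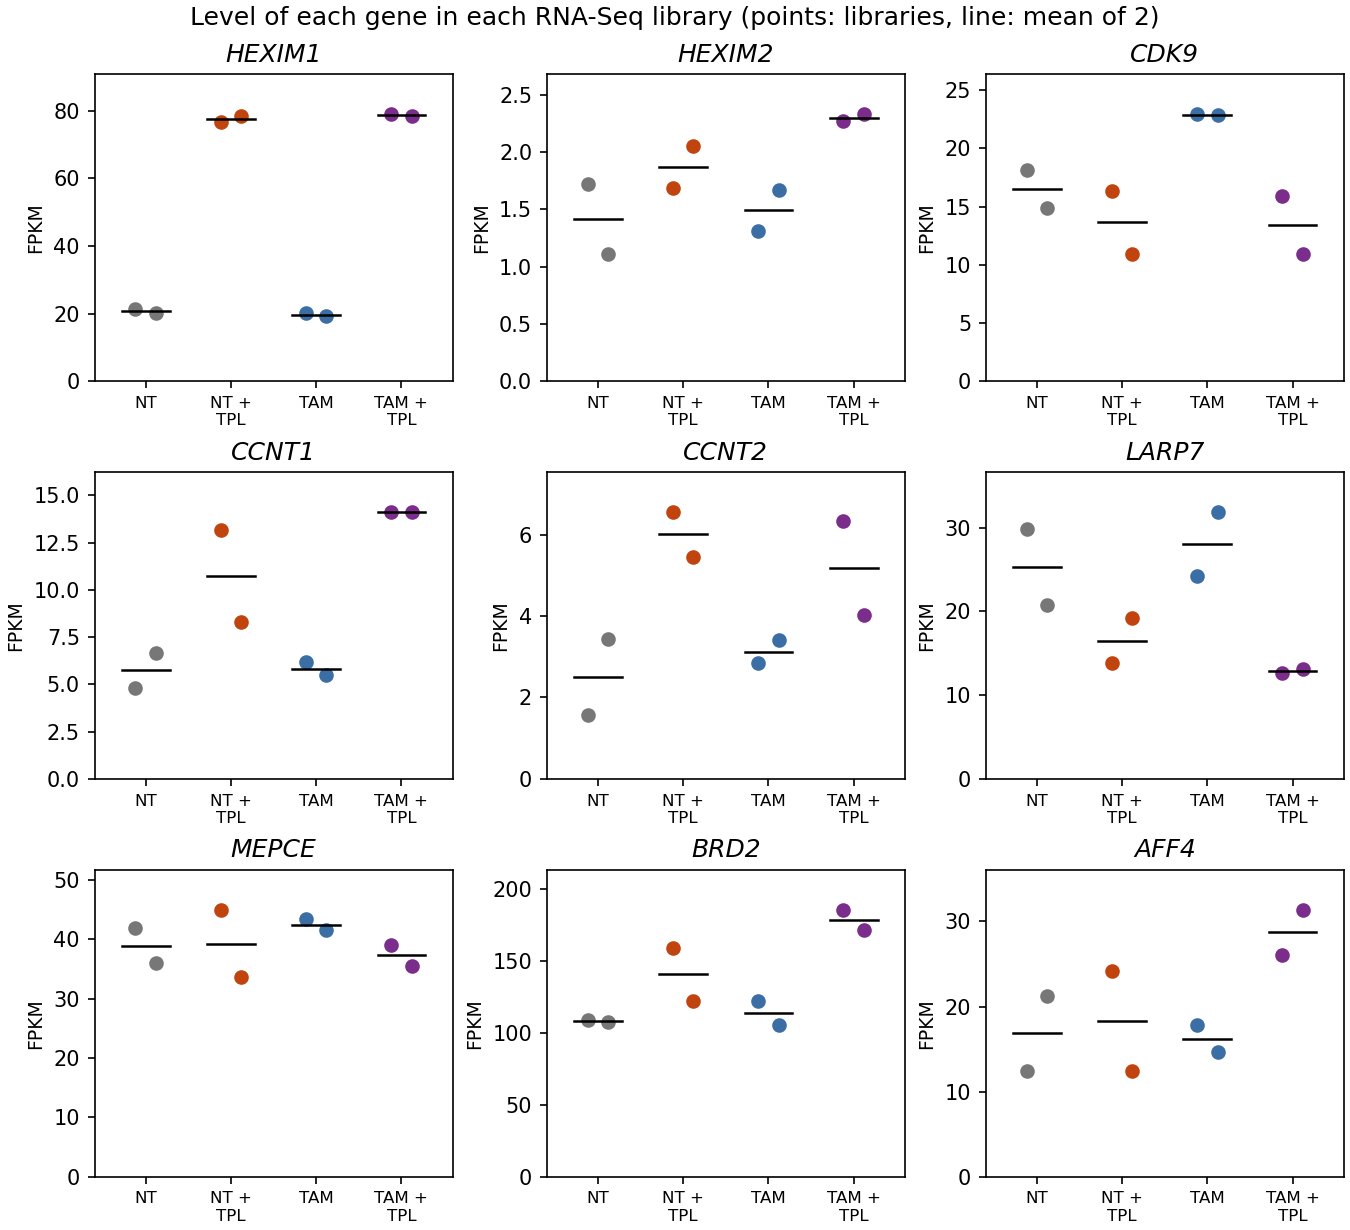
FPKM of each of the 9 genes in each of the 8 RNA-Seq libraries, with the group on the horizontal axis, points for libraries, a line for the mean of 2, and a vertical axis that starts at 0 and has its own scale in each panel. HEXIM1 lies between 19.17 and 21.44 FPKM in the DMSO libraries and between 76.83 and 78.99 in the TPL libraries.

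HEXIM1, the main protein inhibitor of P-TEFb, rose with TPL in both cell states. Its level was 21.44 and 20.02 FPKM in the 2 NT libraries and 76.83 and 78.43 in NT + TPL. The TAM libraries had 20.04 and 19.17 FPKM of HEXIM1, and those of TAM + TPL had 78.99 and 78.41. The 4 TPL libraries lay far above the 4 DMSO libraries, and the libraries of a group differed little. The fitted log2 fold change was 1.90 ± 0.122 (SE) in NT cells, a 3.73-fold rise with an adjusted p of 0.00024 (quasi-likelihood test of edgeR, adjusted by Benjamini-Hochberg over 16948 genes). In TAM cells it was 1.96 ± 0.123, a 3.88-fold rise with an adjusted p of 0.000305 in the same test. The difference between the effects in TAM and NT cells was 0.06 ± 0.168 on the log2 scale (adjusted p = 0.945). HEXIM1 is the gene with the firmest change among the members, and it stayed called in every alternative fit and with every library left out.

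HEXIM2, the less abundant relative of HEXIM1, starts 13400 bases downstream of it on the same strand of chromosome 17. It had between 12 and 40 expected counts per library, which limits what can be resolved. Its counts were 18 and 12 in NT cells with DMSO and 29 and 25 with TPL. In TAM cells they were 17 and 18 with DMSO and 38 and 40 with TPL. The counts of the TPL libraries were above those of the DMSO libraries in both states. The log2 fold changes were 0.92 ± 0.401 in NT cells (edgeR, adjusted p = 0.112) and 1.196 ± 0.397 in TAM cells (adjusted p = 0.057), and neither passed. The rise in TAM cells passed under 5 of 14 alternative fits with all libraries, with adjusted p between 0.0119 and 0.0499, and that in NT cells under 1, with at least 10 counts required in every library (0.04). Its FPKM were 1.72 and 1.11 in NT and 1.69 and 2.05 in NT + TPL, which overlap. They were 1.31 and 1.67 in TAM cells with DMSO and 2.27 and 2.33 with TPL, which do not. The mean transcript length that RSEM assigned to HEXIM2 lay between 1303 and 1556 bases in DMSO libraries and between 1612 and 2230 bases in TPL libraries, so the change in FPKM was smaller than that in counts.

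Among the subunits of P-TEFb, cyclin T1 rose in both states and the kinase fell in TAM cells. CCNT1, which encodes cyclin T1, was at 4.83 and 6.64 FPKM in NT and 13.1 and 8.32 in NT + TPL. The TAM libraries had 6.17 and 5.49 FPKM, and both TAM + TPL libraries had 14.1. TPL libraries were above DMSO libraries in both states without overlap. CCNT1 rose by a log2 fold change of 0.90 ± 0.240 in NT cells (edgeR, adjusted p = 0.0256) and 1.24 ± 0.240 in TAM cells (adjusted p = 0.00913). The call in NT cells was lost without NT replicate 1 (log2 fold change 0.67, adjusted p = 0.132), without NT + TPL replicate 1 (0.56, adjusted p = 0.0828), with GAPDH as the reference (0.51, adjusted p = 0.199), in the fit of the 2 groups only (0.92, adjusted p = 0.0776) and with limma on log2(FPKM + 0.1) (0.87, adjusted p = 0.0551). In TAM cells the log2 fold change stayed between 1.154 and 1.32 with any 1 of the 4 libraries left out, with adjusted p between 0.0475 and 0.0697.

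CCNT2, which encodes cyclin T2, was at 1.56 and 3.43 FPKM in NT and 6.55 and 5.46 in NT + TPL. The TAM libraries were at 2.85 and 3.40 FPKM, those of TAM + TPL at 6.34 and 4.03. All TPL libraries were above the DMSO libraries of their state. The change passed in NT cells, with a log2 fold change of 1.25 ± 0.386 (edgeR, adjusted p = 0.0419), and was 0.67 ± 0.381 in TAM cells (adjusted p = 0.212). The values are those of the entry with the gene ID, and 3 more entries of CCNT2, listed by transcript accession, took part of the reads. With all 4 entries added, CCNT2 had 217 and 339 expected counts in NT and 361 and 287 in NT + TPL. For TAM cells the sum was 200 and 235 with DMSO, and 331 and 419 with TPL. On that sum the groups overlapped in NT cells, the log2 fold change in NT cells was 0.30 (adjusted p = 0.297), and that in TAM cells was 0.83 (adjusted p = 0.013). The state in which CCNT2 passed therefore depended on how its transcripts were grouped. The call in NT cells was also lost without NT replicate 1 (log2 fold change 0.77, adjusted p = 0.138) and with GAPDH as the reference (0.84, adjusted p = 0.167). It was lost at log2 fold changes between 1.148 and 1.36 without either NT + TPL library (adjusted p = 0.109 and 0.0829), with the replicate number as a block (0.0676, or 0.0553 with crossed numbers), in the fit of the 2 groups only (0.0782) and with limma on log2(FPKM + 0.1) (0.051).

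CDK9, the kinase subunit, was at 18.1 and 14.9 FPKM in NT and 16.3 and 10.9 in NT + TPL, which overlap. Both TAM libraries had 22.9 FPKM, and those of TAM + TPL had 15.9 and 10.9, without overlap. The log2 fold change was -0.29 ± 0.243 in NT cells (edgeR, adjusted p = 0.380). Under 1 of 14 alternative fits with all libraries, GAPDH as the reference, the fall in NT cells passed (-0.65, adjusted p = 0.0479). In TAM cells CDK9 fell by 0.82 ± 0.243 on the log2 scale, or 1.76-fold, with an adjusted p of 0.0402. The fall was not called with library size only (adjusted p = 0.057), with upper quartile scaling (0.112), with limma on log2(FPKM + 1) or log2(FPKM + 0.1) (0.0523 and 0.0804) or with a block of crossed replicate numbers (0.0569). With any 1 of the 4 libraries compared left out it was not called either (0.0554 to 0.207), at log2 fold changes between -1.12 and -0.56. The difference between the states was -0.53 ± 0.343 and did not pass (adjusted p = 0.613).

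Of the core proteins of the 7SK particle, LARP7 fell in TAM cells and MEPCE did not pass in either state. LARP7, which binds and protects the end of the 7SK RNA, was at 29.9 and 20.8 FPKM in NT and 13.8 and 19.2 in NT + TPL. LARP7 was at 24.2 and 31.8 FPKM in TAM cells with DMSO and at 12.7 and 13.2 with TPL. Each TPL library was below each DMSO library of its state. LARP7 fell by 1.16 ± 0.261 on the log2 scale in TAM cells, or 2.24-fold (edgeR, adjusted p = 0.0157), and its log2 fold change in NT cells was -0.61 ± 0.259 (adjusted p = 0.105). The fall in NT cells passed under 3 of 14 alternative fits with all libraries. These were DESeq2 (adjusted p = 0.0479), GAPDH as the reference (0.034) and removal of each library's trend with transcript length (0.0493). With a library left out the log2 fold change in TAM cells stayed between -1.36 and -0.95, and the call was lost without TAM replicate 2 (adjusted p = 0.0914), TAM + TPL replicate 1 (0.0938) or TAM + TPL replicate 2 (0.0768). MEPCE, which caps the 7SK RNA, was at 41.9 and 36.0 FPKM in NT cells with DMSO and 44.9 and 33.6 with TPL. The corresponding TAM values were 43.4 and 41.5, and 39.0 and 35.5. Its log2 fold changes were -0.02 ± 0.191 in NT cells (adjusted p = 0.947) and -0.11 ± 0.191 in TAM cells (adjusted p = 0.670), the smallest in size of the 9 in NT cells.

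BRD2, a BET protein, was at 109 and 108 FPKM in NT and 159 and 122 in NT + TPL. In TAM cells BRD2 had 122 and 105 FPKM, which became 186 and 172 with TPL. TPL libraries were above DMSO libraries in both states. BRD2 rose by 0.66 ± 0.162 on the log2 scale in TAM cells, or 1.58-fold (edgeR, adjusted p = 0.0217), and its log2 fold change in NT cells was 0.34 ± 0.162 (adjusted p = 0.137). The call in TAM cells was lost with GAPDH as the reference (adjusted p = 0.065) and without any 1 of the 4 libraries compared (0.0578 to 0.140, at log2 fold changes between 0.53 and 0.78). The change in NT cells passed under 2 of 14 alternative fits with all libraries. These were upper quartile scaling (log2 fold change 0.56, adjusted p = 0.0316) and removal of each library's trend with transcript length (0.45, adjusted p = 0.0453). The sign in NT cells turned with GAPDH as the reference, to -0.03. AFF4, the scaffold of the super elongation complex, was at 12.5 and 21.3 FPKM in NT and 24.2 and 12.4 in NT + TPL, so the replicates crossed. In TAM cells AFF4 was at 17.8 and 14.7 FPKM with DMSO and at 26.1 and 31.4 with TPL, without overlap. Its log2 fold changes of 0.10 ± 0.345 in NT (adjusted p = 0.844) and 0.77 ± 0.346 in TAM cells (adjusted p = 0.127) did not pass. The rise in TAM cells passed under 3 of 14 alternative fits with all libraries, with a lowest adjusted p of 0.0132. AFF4 has the longest transcript of the 9 (9580 bases), and the libraries differed in how their counts depended on transcript length. Over all genes the rank correlation of a library's deviation with transcript length was 0.179 in NT replicate 2 and -0.213 in NT + TPL replicate 2. With this trend removed from each library, the log2 fold change of AFF4 in NT cells was 0.28 (edgeR, adjusted p = 0.416). The part of the trend in the spread between replicates of AFF4 was not tested.

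In all, 3 of the 9 members rose and 0 fell with TPL in NT cells, where 17.2% of the genes tested rose and 19.8% fell. In TAM cells 3 rose and 2 fell, where 14.3% of all genes rose and 18.6% fell. The median log2 fold change over the 9 was 0.34 in NT and 0.67 in TAM cells, beside 0.09 and 0.05 over all genes. Under the study's stricter rule, an adjusted p no higher than 0.001 with a change of 1.2 or more on the log2 scale, 1 of the 9, HEXIM1, was called in each state, where 3.93% of all genes were called in NT and 2.88% in TAM cells. The FPKM of TPL and DMSO libraries did not overlap for 5 members in NT cells and for all 9 in TAM cells, against 69.1% and 74.7% of all genes. The shares of rises depend on the scaling. Rises made up 46.5% (NT) and 43.5% (TAM) of the calls over all genes, which became 60.9 and 61.1% with upper quartile scaling and 23.7 and 34.7% with GAPDH as the reference. Relative to the median of all genes, the log2 fold change of HEXIM1 was 1.81 in NT cells and 1.91 in TAM cells. With GAPDH as the reference the median of all genes shifted to -0.26 and -0.07, and the log2 fold change of HEXIM1 itself was 1.55 and 1.84. Under that reference 1 member, HEXIM1, rose in NT cells and 2 fell. These 2 were CDK9 (log2 fold change -0.65, edgeR, adjusted p = 0.0479) and LARP7 (-0.94, adjusted p = 0.034). In TAM cells 2 rose and 2 fell under it.

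**Figure D2:**
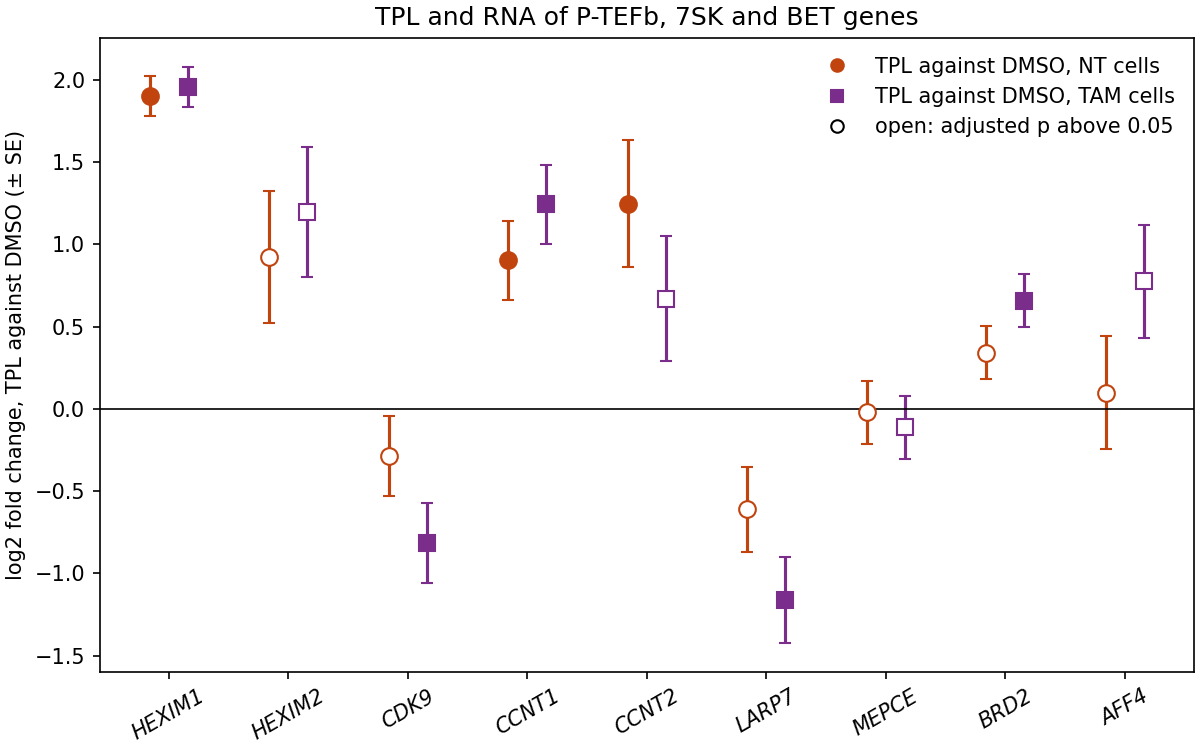
Log2 fold change of each gene with TPL against DMSO in NT cells (circles) and TAM cells (squares). Bars are 1 SE derived from the edgeR test, and symbols are open where the adjusted p is above 0.05. HEXIM1 lies at 1.90 and 1.96, CCNT1 at 0.90 and 1.24, and LARP7 and CDK9 lie below 0 in both states with a call in TAM cells.

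Transformation itself left no called change in the members. With DMSO, 0 of 9 differed between TAM and NT cells, where 6.84% of all genes did. The lowest adjusted p was that of CDK9 (0.330), with a log2 difference of 0.49 ± 0.241 and both TAM libraries above both NT libraries. With TPL, 0 of 9 differed, against 7.03% of all genes. The lowest adjusted p was that of BRD2 (0.235), with a difference of 0.38 ± 0.161. The effect of TPL differed between the states for 0 of 9 members, against 0.165% of all genes. By edgeR no member had an unadjusted p below 0.05 in these 3 comparisons. DESeq2 and limma on log2(FPKM + 1) called 0 in each as well, and the unadjusted p of DESeq2 was below 0.05 for 1, 2 and 0 members, respectively. The changes called in 1 state were therefore not shown to differ from those in the other. The 2 TPL comparisons share no library.

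The ratio of the inhibitor to the kinase, both per length of transcript, differed more with TPL than between NT and TAM cells. The FPKM of HEXIM1 divided by that of CDK9 was 1.18 and 1.35 in NT, and 0.874 and 0.838 in TAM. With TPL it was 4.71 and 7.16 in NT cells, and 4.96 and 7.16 in TAM cells. All 4 TPL libraries lay above the DMSO libraries. The ratio of HEXIM1 to LARP7 was between 0.602 and 0.965 in the DMSO libraries and between 4.09 and 6.24 in the TPL libraries. The ratio of both HEXIM genes to both cyclins T shifted less, from between 2.10 and 3.62 to between 3.97 and 5.84. It uses only the gene ID entry of CCNT2. In NT replicate 1, which had the ratio of 3.62, that entry held 88.4 of the 217 counts of CCNT2. The ratio of CCNT1 to CDK9 was between 0.240 and 0.447 in the DMSO libraries and between 0.760 and 1.29 in the TPL libraries. HEXIM1 took 8.89 and 8.63% of the summed FPKM of the 9 members in NT and 7.68 and 7.79% in TAM. With TPL its share was 21.5 and 26.8% in NT cells and 20.7 and 21.7% in TAM cells. These are ratios of RNA and say nothing of the amounts of protein.

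RNAPII peaks were available as 1 list per group, with starts and ends but no height or score, and the lists keep peaks that hold a TSS. The series holds 2 RNAPII ChIP samples per group. The peak names of each list carry a single replicate, so each extent below is taken to rest on 1 ChIP and has no replicate check. They were therefore described without a test. A peak lay over the main TSS in all 4 lists for 6 of the 9 members, namely HEXIM1, CDK9, CCNT1, CCNT2, MEPCE and AFF4. The share over 19856 protein-coding genes was 31.5%. Those genes were not limited to ones with RNA in these cells, whereas all 9 members passed the filter on RNA counts. Over the main TSS of LARP7 a peak was listed in NT, and in the other 3 lists the peak began between 91 and 278 bases downstream of it, over another annotated TSS. For HEXIM2 the main peak of each list ended between 170 and 237 bases before the main TSS, over a start site further upstream. BRD2, the most abundant member, had peaks over 2 of its other start sites in the NT list and none over any of its start sites in the other 3. A gene without a listed peak cannot be taken as free of RNAPII.

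The peak over HEXIM1 reached further into the gene with TPL. HEXIM1, a gene without introns, lies at chr17:43225842-43229466 (hg19, plus strand, 3625 bases). The peak ended 1879 bases downstream of the TSS in NT and 3746 bases downstream in NT + TPL. It ended 621 bases downstream in TAM and 3778 bases downstream in TAM + TPL. The listed peak thus covered 51.9% of this annotated span in NT and 17.2% in TAM, and the whole span in both TPL lists. The RNA-Seq entry of HEXIM1 has a longer transcript, 4785 bases, and whether the peaks covered all of it was not tested. The TAM list carries peak names of another cutoff (q 0.1) than the other 3 lists (0.02), and 4584 of its 11056 peaks are pieces marked by a letter, so its widths are not like for like. Among genes with a peak over the main TSS in both lists, the downstream gain of HEXIM1 ranked 17 of 7313 in NT and 9 of 6762 in TAM cells. Some genes with such a peak had an annotated span at least as long as that of HEXIM1. Of these, 0.183% in NT + TPL and 0.115% in TAM + TPL lay wholly inside their peak, against 0.778% in NT and 0.358% in TAM. This last measure was chosen after the peak of HEXIM1 had been seen.

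CCNT1 and AFF4 also had peaks that ended further downstream in both TPL lists. The end of the CCNT1 peak moved from 144 to 719 bases downstream of the TSS in NT cells and from 145 to 420 in TAM cells. The end of the AFF4 peak moved from 904 to 1276 bases and from 486 to 1433. That of CCNT2 moved from 238 to 889 bases in NT cells and from 155 to 215 in TAM cells. The end of the CDK9 peak went from 744 to 329 bases in NT cells and from 624 to 652 in TAM cells. That of MEPCE went from 1137 to 489 bases and from 488 to 316. In NT cells 4 of the 6 members therefore had a peak that ended further downstream with TPL, against 39.8% of all genes with a peak in both lists, and in TAM cells 5 of the 6 did, against 55.4%. The median end over those genes was 344 bases with DMSO and 307 with TPL in NT cells, and 214 with DMSO and 240 with TPL in TAM cells.

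**Figure D3:**
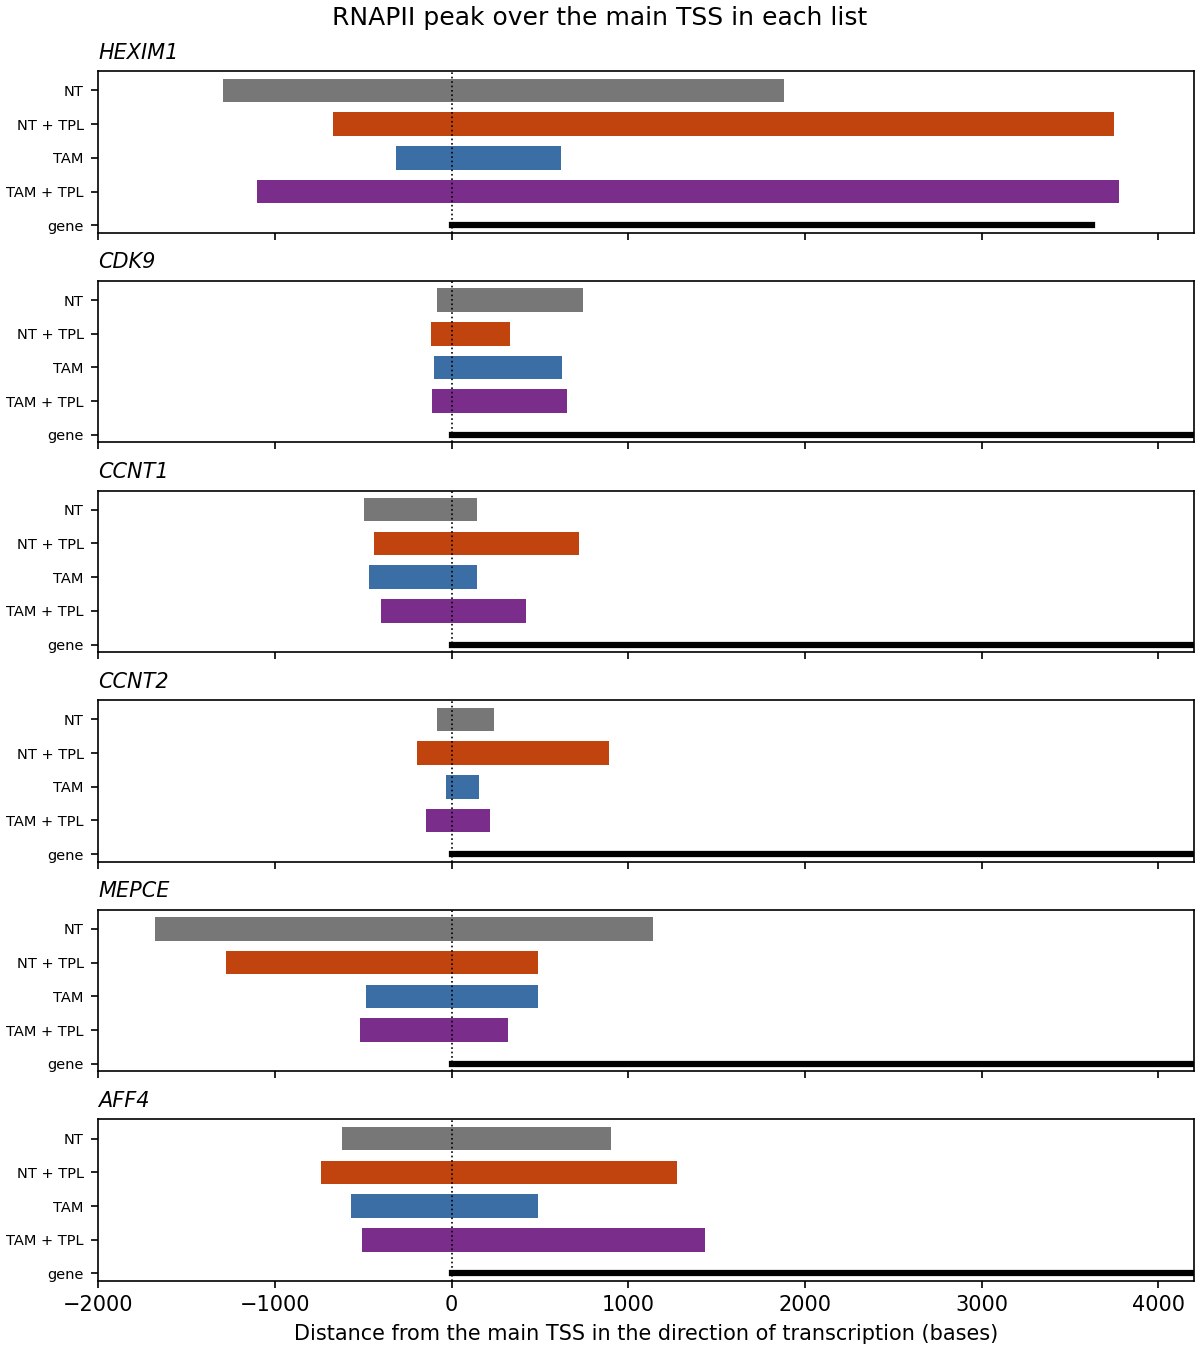
Extent of the listed RNAPII peak over the main TSS in each of the 4 groups for the 6 genes with such a peak in every list, with the distance from the TSS in bases along the direction of transcription on the horizontal axis and the annotated gene as a black line (cut at the edge of the plot where it is longer). The bars of HEXIM1 end 3746 and 3778 bases downstream with TPL, beyond the end of the annotated span of 3625 bases, against 1879 and 621 with DMSO.

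The other genes of the pathway were followed as lists. Of the 2 other BET genes described here, BRD3 and BRDT, 1 fell with TPL in NT cells and 0 passed in TAM cells (edgeR). In TAM cells 1 was below an unadjusted p of 0.05 by edgeR. Over all genes 17.2% rose and 19.8% fell in NT cells, and 14.3% rose and 18.6% fell in TAM cells. BRD3 fell by 0.93 ± 0.258 on the log2 scale in NT cells (adjusted p = 0.0298), with -0.76 ± 0.254 in TAM cells (adjusted p = 0.058). BRDT, a BET gene known for its expression in testis, had log2 fold changes of 1.33 ± 0.569 and 1.24 ± 0.547 (adjusted p = 0.107 and 0.124) and stayed below 1 FPKM in every library.

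Of 9 other genes of the super elongation complex and its partners, 2 rose and 1 fell in each state, where 17.2 and 14.3% of all genes rose and 19.8 and 18.6% fell (NT and TAM cells). EAF2, a partner of the ELL elongation factors, was between 0.24 and 0.59 FPKM in the DMSO libraries and between 4.17 and 6.80 in the TPL libraries. It rose by a log2 fold change of 4.09 ± 0.624 (NT) and 3.54 ± 0.5998 (TAM; edgeR, adjusted p = 0.00342 and 0.00565). EAF1, its relative, was the other gene that rose, by 0.80 and 1.01. MLLT1, which encodes ENL, a subunit that reads acylated histones, fell by 1.501 ± 0.203 in NT cells and fell by 1.14 ± 0.201 in TAM cells (adjusted p = 0.00214 and 0.0066). AFF3, a relative of AFF4, had log2 fold changes of 0.33 ± 0.470 and 1.47 ± 0.483 that did not pass (adjusted p = 0.606 and 0.0548). The median of the 9 was 0.34 in NT and 0.70 in TAM cells.

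Of 13 genes for the 7SK RNA and for proteins that bind 7SK or release P-TEFb, 3 rose and 7 fell in NT cells, and 0 rose and 7 fell in TAM cells. Beside these counts stand 17.2% rising and 19.8% falling over all genes in NT cells, and 14.3 and 18.6% in TAM cells. SYNCRIP, an hnRNP protein, went from 61.5 and 68.7 FPKM in NT to 9.92 and 9.35 in NT + TPL, and from 52.6 and 61.6 in TAM to 13.5 and 13.6 in TAM + TPL. It fell by 3.18 ± 0.141 in NT cells and fell by 2.54 ± 0.137 in TAM cells on the log2 scale (edgeR, adjusted p = 0.000178 and 0.000235). PPM1A, a phosphatase, fell by 1.85 ± 0.313 in NT cells and fell by 1.43 ± 0.302 in TAM cells (adjusted p = 0.00504 and 0.0127). RN7SK, the 7SK RNA itself, rose by 2.10 ± 0.624 in NT cells (adjusted p = 0.0367), with 1.58 ± 0.621 in TAM cells (adjusted p = 0.0927). Its level was 7.75 and 6.01 FPKM in NT cells with DMSO and 14.5 and 44.5 with TPL. In TAM cells it was 5.03 and 7.48, and 14.8 and 24.7. 7SK RNA has no poly-A tail and the libraries were enriched for poly-A RNA, so these are residual counts and do not measure its amount in the cell. The median log2 fold change of the list was -0.62 in NT and -0.56 in TAM cells.

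Of the 3 genes of the other kinases that act on elongating RNAPII, CDK13 fell by 0.50 ± 0.161 in NT cells (edgeR, adjusted p = 0.0475), with -0.18 ± 0.1602 in TAM cells (adjusted p = 0.412). CDK12 had log2 fold changes of -1.21 ± 0.409 and -0.46 ± 0.401 (adjusted p = 0.0557 and 0.406). Their cyclin, CCNK, had 0.22 ± 0.274 and 0.18 ± 0.274 (adjusted p = 0.549 and 0.638).

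**Figure D4:**
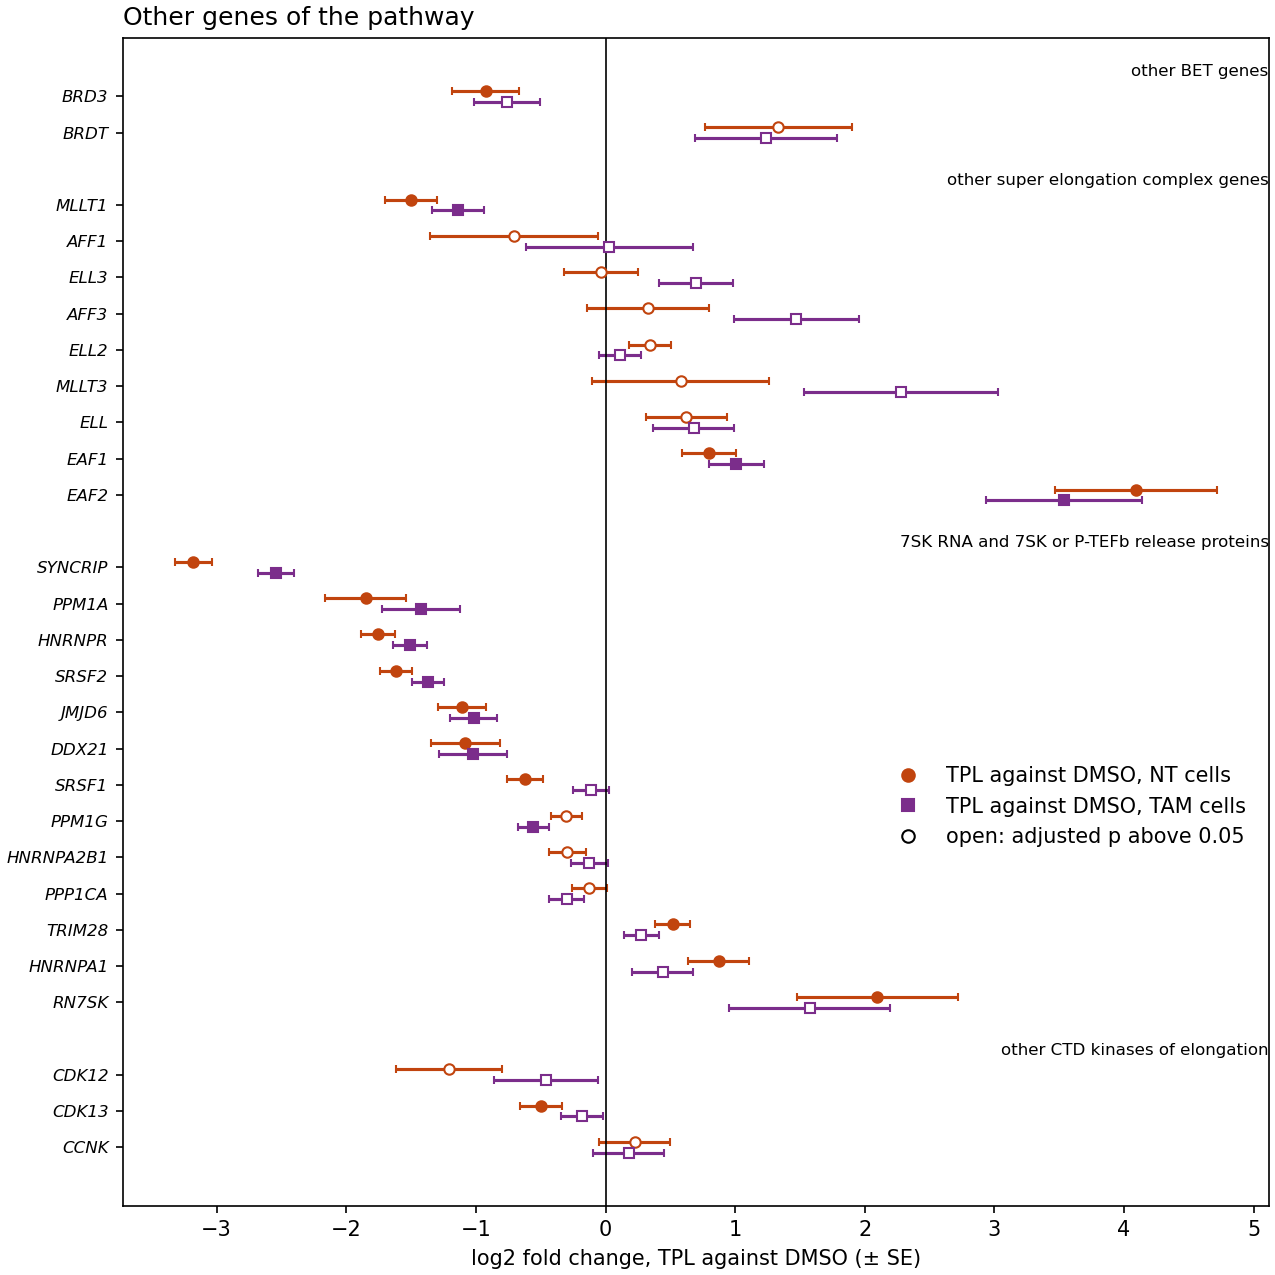
Log2 fold change with TPL against DMSO of the other genes of the pathway described here, in 4 lists, ordered within a list by the value in NT cells. Circles stand for NT cells and squares for TAM cells. Bars are 1 SE derived from the edgeR test, and symbols are open where the adjusted p is above 0.05. SYNCRIP at -3.18 and -2.54 and EAF2 at 4.09 and 3.54 lie furthest from 0.

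The genes whose pattern over the 8 libraries was most like that of HEXIM1 were VAMP1, PYGM, HSPA2, PAQR6 and SLIT2, with Pearson r of log2(FPKM + 1) between 0.995 and 0.996 among 3775 genes that differed between groups. VAMP1, which encodes a vesicle fusion protein, had group means of 5.17 and 4.70 FPKM in NT and TAM and of 79.4 and 73.3 with TPL, and HSPA2, a heat shock protein, went from 0.985 and 1.07 to 14.3 and 12.6. The genes most like CDK9 were PCGF5, IER3, INO80E, PHC2 and SMAP2, with r between 0.914 and 0.933. Their means were highest in TAM, as was that of CDK9, and PCGF5, a Polycomb protein, had means of 28.2 FPKM in NT and 45.7 in TAM, and of 21.1 and 22.6 with TPL. The libraries of a group share their treatment, so the 8 points are not independent, and the likeness is a description.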

How the data were processed

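RNA was selected by its poly-A tail, its reads were mapped by the authors to transcripts with Bowtie2, and RSEM gave the deposited expected counts, not normalized and estimated per gene. The FPKM values deposited by the authors come from the same step and divide by effective transcript length and library total. Whether counting used strand is not given in the sources used here, and exons of HEXIM1, HEXIM2, CCNT2, LARP7, MEPCE and BRD2 overlap a gene of the opposite strand. For RNAPII the authors used the antibody 8WG16, aligned reads to hg19 and called peaks with MACS. Each list names a single replicate in its peaks.

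Entries without a read were taken as 0. Of 23604 entries, 21077 were named by gene ID, 2407 by accession, and 120 had no name. Names came from a RefSeq table. After rounding, the expected counts went into edgeR 4.0.16 (TMM, filterByExpr, quasi-likelihood test, 4 groups in a single fit, 16948 genes). A change is called at 0.05 on the adjusted p, a looser threshold than the study's. The SE of a log2 fold change was derived as its size divided by the square root of the F statistic of the quasi-likelihood test. TSSs came from GENCODE release 44 on build 37. Depth was 7461309 to 8349448 expected counts a library. The code was tested on simulated data. Replicates differed by more than counting noise in every group. Alternatives were DESeq2 1.42.0, 4 other scalings, 2 other filters, limma 3.58.1 on FPKM with pseudocounts of 1 and 0.1, summed entries, a replicate block, fits of 2 groups and leaving out each library. The members, lists and rules were chosen with earlier results of these data known. Named are the 9 members, up to 3 genes per list with the largest changes at a mean of at least 1 FPKM, and the 5 genes most like HEXIM1 and CDK9 (mean of at least 5 FPKM and group means at least 1 apart on the log2 scale). ChIP reads, heights and inputs were not used here. BRDT, EAF1, TP63, CD14 and CD3E fall outside this rule and were chosen after their values were seen. Some entries of the gene and marker lists are not reported here.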

Additional observations from a re-analysis of the deposited data

How the results depend on the processing

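With TPL in NT cells 3 members passed, which became 1 in the fit of the 2 groups only, 1 with limma on log2(FPKM + 0.1), 1 under the study's threshold and 5 with each library's trend with transcript length removed, an alternative chosen after seeing the data. With TPL in TAM cells 5 passed, which became 1 under the study's threshold. With a library left out, where the lone sample is assumed to vary like the other groups, the counts ranged from 1 to 3 for NT cells and from 1 to 2 for TAM cells. The log2 fold changes in TAM cells then stayed between 1.154 and 1.32 for CCNT1, -1.36 and -0.95 for LARP7, 0.53 and 0.78 for BRD2, and -1.12 and -0.56 for CDK9, against 1.24, -1.16, 0.66 and -0.82 with all libraries. HEXIM1 was among the calls each time, with log2 fold changes from 1.545 to 2.12 for NT cells and from 1.84 to 2.197 for TAM cells. Under the other alternatives the total counts stayed within 1.5 times the main ones, but the genes called and their directions could differ. With GAPDH as the reference the 3 calls in NT cells were 1 rise and 2 falls. The counts of the 3 remaining comparisons stayed at 0. The count of members with a peak over the main TSS in all 4 lists was 6, beside 8 for any annotated TSS, 8 for a peak within 1000 bases and 4 with the TSS at least 100 bases inside. Of 837 values of single members under an alternative, 34 lost a call and 17 gained one, and no called value changed sign. For 60 values that were not called the sign changed. The cause of these differences was not tested.

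Replicate numbers did not pair the libraries, since the correlations of same-numbered deviations lay between -0.113 and 0.0472. With the number as a replicate block, 2 members passed in NT cells, where CCNT2 was lost, and 5 in TAM cells. With crossed numbers in NT + TPL, also chosen after seeing the data, 2 and 4 passed. Depth limits HEXIM2 most, with at most 40 counts in a library.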
